A study of Mus musculus with 9 samples.

Results

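The histone genes of the replication clusters were followed across the kidneys of db/db mice given irbesartan, db/db mice given vehicle and db/m mice given vehicle. Their members were all probe sets whose annotated symbol, or any of several symbols, started with H1f, H2ac, H2bc, H3c or H4c. This rule found 68 probe sets of the 41345 on the array. Probe sets that carried the same string of symbols were represented by the brightest of them, on average over the 9 arrays, leaving 53 members among 23629 symbol strings. Of these members, 29 carried 1 symbol and 24 carried several, up to 13. Within the classes H2A, H2B, H3 and H4 the genes have nearly identical coding sequences, and a probe can match many of them. The 24 strings of several symbols held only 12 distinct sets of genes, so they were not independent measurements. Of the 68 probe sets, 6 shared all 9 values with another probe set of the same string, and only 1 of each such pair was kept. The members named 66 genes of the rule in all, 53 of them on chromosome 13, 10 on chromosome 3, 2 on chromosome 6 and 1 on chromosome 15. Those on chromosome 6, H1f10 and H1f8, lie 27963448 bases apart. The genes on chromosomes 6 and 15 are outside the replication clusters, but the rule took them in and all counts include them.

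All mice were male. The db/db mice lack a functional leptin receptor and develop obesity and type 2 diabetes, and the db/m mice, which carry 1 copy of the mutation, served as nondiabetic controls. Irbesartan, which blocks the angiotensin II type 1 receptor, or vehicle was given for 12 weeks, in db/db mice from an age of 10 weeks by the labels, and the methods name another age and a C57BL/KsJ background. Each group had 3 arrays, 1 per mouse, from mice selected out of larger groups. The labels name kidney and a whole-transcript mouse gene array, the one that the probe set numbers match. The methods describe renal cortex and a different array. The values were log2 signals after RMA, a procedure that corrects background, sets all arrays to the same distribution and summarizes the probes of a probe set.

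Replication-dependent histones supply the protein that packages newly made DNA. Their genes lie in clusters, are transcribed in S phase with the help of the coactivator NPAT, and most of their mRNAs end in a stem-loop bound by SLBP in place of a poly(A) tail. Some of these genes also give polyadenylated transcripts in cells that have stopped dividing, and most cells of the adult kidney are quiescent. H2A, H2B, H3 and H4 form the core of the nucleosome, and H1 is the linker histone that binds DNA between nucleosomes. How the cDNA was primed is not given in the sources used here, so whether the signals came from stem-loop or polyadenylated transcripts cannot be told.

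The promoters of the 4 single genes on which the results turned are shown because histone classes are known to share short promoter elements. Each line holds the 250 bases before the RefSeq start site, read 5′ to 3′ along the gene, in build GRCm38.p6. The positions are chr13:22035571-22035820 on the plus strand for H2bc12, chr3:96220881-96221130 on the minus strand for H2ac20, chr3:96219635-96219884 on the plus strand for H2ac21 and chr13:23738557-23738806 on the plus strand for H1f2. Capitals mark matches on either strand to CCAAT, to the TATA element TATAAA, to the octamer ATTTGCAT and to AAACACA, a motif known from H1 promoters, which was added after the sequences were seen.
H2bc12: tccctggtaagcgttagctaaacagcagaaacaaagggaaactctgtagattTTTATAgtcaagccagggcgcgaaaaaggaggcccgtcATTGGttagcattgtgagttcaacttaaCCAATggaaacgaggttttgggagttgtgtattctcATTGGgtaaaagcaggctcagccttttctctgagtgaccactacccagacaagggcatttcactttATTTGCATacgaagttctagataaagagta
H2ac20: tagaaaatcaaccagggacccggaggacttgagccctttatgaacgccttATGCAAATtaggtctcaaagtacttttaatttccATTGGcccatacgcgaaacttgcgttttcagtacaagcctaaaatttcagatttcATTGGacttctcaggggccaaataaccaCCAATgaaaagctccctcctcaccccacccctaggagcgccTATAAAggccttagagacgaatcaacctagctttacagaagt
H2ac21: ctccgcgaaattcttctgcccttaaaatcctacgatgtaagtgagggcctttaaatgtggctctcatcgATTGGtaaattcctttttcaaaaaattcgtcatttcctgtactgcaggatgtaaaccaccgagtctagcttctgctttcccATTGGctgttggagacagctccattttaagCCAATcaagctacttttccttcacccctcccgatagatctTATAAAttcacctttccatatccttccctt
H1f2: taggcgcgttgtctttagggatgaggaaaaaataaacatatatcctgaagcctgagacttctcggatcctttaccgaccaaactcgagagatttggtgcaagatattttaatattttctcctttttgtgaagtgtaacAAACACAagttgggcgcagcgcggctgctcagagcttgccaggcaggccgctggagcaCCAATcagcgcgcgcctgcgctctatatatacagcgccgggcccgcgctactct

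H2bc12, H2ac20 and H2ac21 each held 3 CCAAT matches, and H1f2 held 1, close to its start, together with 1 AAACACA. The octamer was found in H2bc12 and H2ac20, and not in these letters in H2ac21 or H1f2. RefSeq windows were found for 61 of the 66 genes, 62 windows in all. CCAAT was present in 50 of them (80.6%), against 33.8% of all 32851 promoter windows. It was present in 17 of 17 H2A, 15 of 15 H2B, 8 of 10 H3, 7 of 9 H1 and 3 of 11 H4 windows. TATAAA was present in 45.2% of the histone windows, against 12.4% of all. The octamer was present in 6 of 17 H2A and 7 of 15 H2B windows and in 0 of the H1, H3 and H4 windows, against 1.6% of all. AAACACA was present in 5 of 9 H1, 2 of 17 H2A and 2 of 15 H2B windows and in 0 of the H3 and H4 windows. This was 14.5% of the histone windows, against 6.25% of all. The E2F elements TTTCCCGC and TTTGGCGC were present in 1 and 0 of the 62 windows, against 0.895% and 0.417% of all. A match only describes these windows, and neighbouring genes share bases of theirs. Neighbours were placed only where both genes had a window. Among these, H2A and H2B genes stood back to back in 9 pairs with 163 to 280 bases between them, H2ac12 and H2bc12 with 177 bases. Windows of 250 bases therefore overlap within such a pair, and that of H2bc12 reaches into H2ac12. As both strands were searched, 1 match can count for both genes, so the H2A and H2B counts are not counts of separate promoters. H2ac21 and H2ac20 lay tail to tail with 58 bases between them. H2bc21 and the other side of H2ac20 were not placed, so the count of 9 pairs is a minimum.

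The 9 arrays resembled each other, with correlations over all probe sets between 0.984 and 0.994 and array medians between 3.36 and 3.45. Markers of the proximal tubule, thick limb, distal convoluted tubule, collecting duct, podocytes and endothelium were all above the median probe set. The mean signals of the members ran from 1.12 to 10.8, and 22 of the 53 lay above the median of all probe sets (3.39). The other 31 were dim, and little can be read from them. The within-group SD had a median of 0.194 over the members and 0.147 over all symbol strings, so the histone signals varied more between mice of a group than the array as a whole.

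To ask whether irbesartan altered histone transcripts in diabetic kidneys, treated db/db mice were compared with db/db mice given vehicle. As a group the histone genes did not move one way. H2bc12, an H2B gene, fell and H2ac20, an H2A gene, rose, and no other member was called. A gene was called when its absolute log2 fold change exceeded 0.5 and its limma p, adjusted by Benjamini-Hochberg over all 23629 symbol strings, was under 0.25, the thresholds named in the methods. The background of calls was 0.601% higher and 0.415% lower over all symbol strings, beside 1 and 1 of the 53 members. The members had a median log2 fold change of -0.03, with 26 above 0 and 27 below, and the median over all symbol strings was -0.01. Over the 22 bright members alone the median was 0.11, with 13 above 0. At an adjusted p under 0.05, limma called 0 members and 0 symbol strings, and at an unadjusted p under 0.05 it called 6 members and 12.1% of all. In RNA of kidney tissue, fewer cells of a type and less RNA per cell cannot be told apart.

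H2bc12 is one of the H2B genes that the array measured with a probe set of its own. Its log2 signal was 4.08, 4.43 and 4.45 in the treated db/db mice, against 4.94, 5.45 and 5.23 in the db/db mice given vehicle and 4.70, 4.99 and 5.10 in the db/m mice. All 3 treated mice were below all 6 others. The log2 fold change between treated and vehicle db/db mice was -0.89 (95% interval -1.24 to -0.54, limma adjusted p = 0.103), and the call was lost when treated replicate 1, treated replicate 3 or db/db replicate 2 was left out (limma adjusted p between 0.287 and 0.319). Those fits called 0.14%, 0.0127% and 0.123% of all symbol strings, against 1.02% with all arrays. In them H2bc12 stood at -0.77, -0.95 and -0.76. Against db/m mice the log2 fold change was -0.61 (95% interval -0.96 to -0.27, limma adjusted p = 0.0639), a call lost without treated replicate 1, when the fold change was -0.49. Between db/db and db/m mice, both given vehicle, it was 0.27 (95% interval -0.07 to 0.62, limma adjusted p = 0.497). H2bc12 is also named with the same 11 other symbols in 2 further members, the H2bc6 group of 12 and the dimmer H4bc24 group of 12, for which treated and vehicle db/db mice differed by 0.02 (95% interval -0.22 to 0.26) and 0.03.

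**Figure D1:**
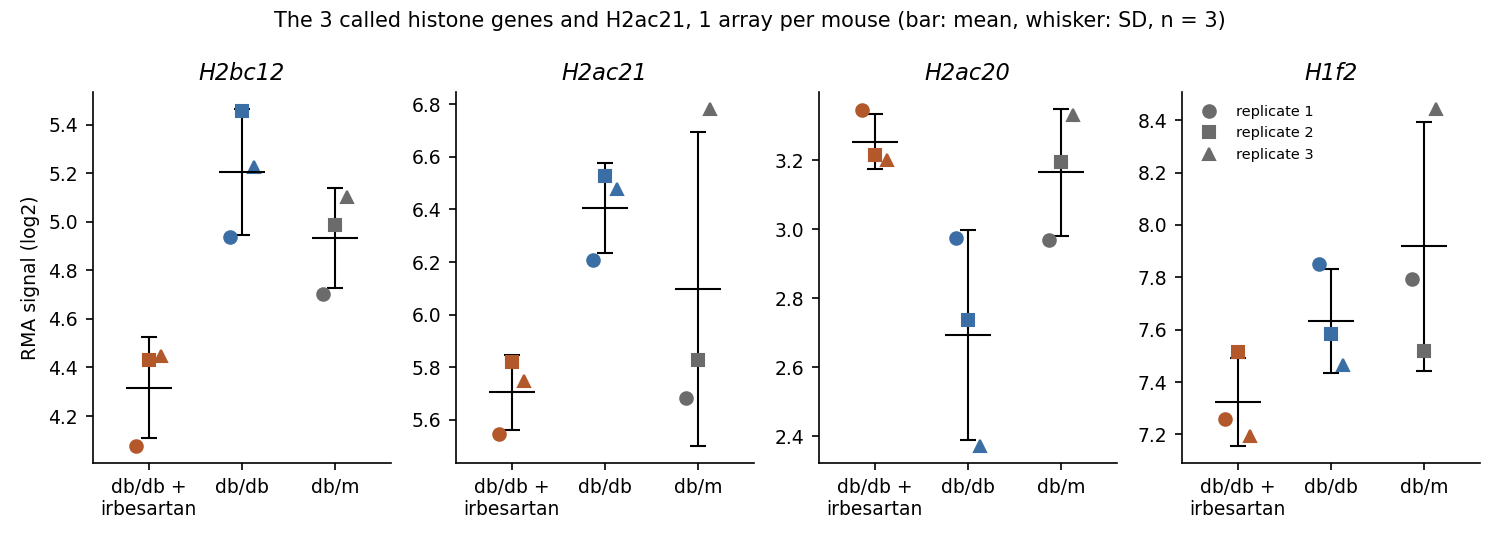
The RMA log2 signal of H2bc12, H2ac21, H2ac20 and H1f2 in each mouse, with 1 panel per gene on its own scale. Points are arrays, bars are group means and whiskers are SD (n = 3). For H2bc12 the 3 mice given irbesartan, at 4.08 to 4.45, lie below the db/db and db/m mice, whereas H2ac21 and H1f2 have 1 db/m mouse, replicate 3, far above the other 2.

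H2ac20, an H2A gene of the cluster on chromosome 3, had log2 signals of 3.35, 3.21 and 3.20 in treated db/db mice, against 2.97, 2.74 and 2.37 in db/db mice given vehicle and 2.97, 3.19 and 3.33 in db/m mice. The treated mice were above the vehicle db/db mice without overlap and lay in the range of the db/m mice or just above it. The probe set was dim, with a mean below the median of all probe sets. The log2 fold change was 0.56 in treated against vehicle db/db mice (95% interval 0.23 to 0.89, limma adjusted p = 0.213), and the call held in only 3 of the 9 fits that left out 1 array, with fold changes between 0.40 and 0.70. A brighter probe set that names H2ac18, H2ac19 and H2ac20 together did not show the same difference. Its signals were 8.86, 8.76 and 8.68 in treated db/db mice, 8.91, 8.85 and 8.64 in vehicle db/db mice and 9.04, 8.88 and 9.49 in db/m mice, and treated and vehicle db/db mice differed by -0.03 (95% interval -0.36 to 0.29).

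H2ac21, the neighbour of H2ac20, had a larger fold change than H2ac20 and was not called. Its log2 signal was 5.55, 5.82 and 5.75 in treated db/db mice, against 6.21, 6.53 and 6.48 in vehicle db/db mice and 5.68, 5.83 and 6.78 in db/m mice. The treated and the vehicle db/db mice did not overlap, and the db/m mice spanned both. The log2 fold change of -0.70 (95% interval -1.22 to -0.18) missed the threshold with a limma adjusted p of 0.29, and passed it at 0.0894 without db/m replicate 3, which enters the shared estimate of the spread. It also passed in the fit of the 6 arrays compared (0.135), with array weights (0.11), with median centring (0.219) and among probe sets above the median signal (0.227), so that its call depended on the setting. A second, dimmer probe set of H2ac21 gave -0.02.

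Between treated and vehicle db/db mice, 12 of the 53 members did not overlap, 6 higher and 6 lower, which is 22.6% of them beside 21.7% of all symbol strings. By class, the 9 H1 members ran from -0.31 for H1f2 to 0.39 for H1f6, a testis H1, and 5 were above 0. The 14 H2A members ran from H2ac21 to H2ac20, with values given above, and 6 were above 0. The 14 H2B members ran from H2bc12 to 0.27 for the H2bc15 group of 4, with 8 above 0. The 6 H3 members, of which none had a probe set to itself, ran from -0.33 for the H3c1 group of 4 to 0.55 for the H3c13 group of 8, which was lowest in db/db replicate 3 and was not called (limma adjusted p = 0.331). Members that name the same 4 genes as the H3c1 group stood at 0.12 and -0.13, and its dimmer probe set gave -0.08. Those that name the same 8 genes as the H3c13 group stood at -0.11 and -0.25. The dimmer probe sets of the H3c13 group gave -0.09, -0.09, 0.31 and -0.08. The 9 H4 members ran from -0.14 for H4c9 to 0.26 for H4c12, and the 1 string that mixed H1f4 with 3 H2B genes stood at -0.08. Across the classes the members lay on both sides of 0, as did all symbol strings, of which 46.55% were above 0. Some of this spread was between members that name the same genes.

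**Figure D2:**
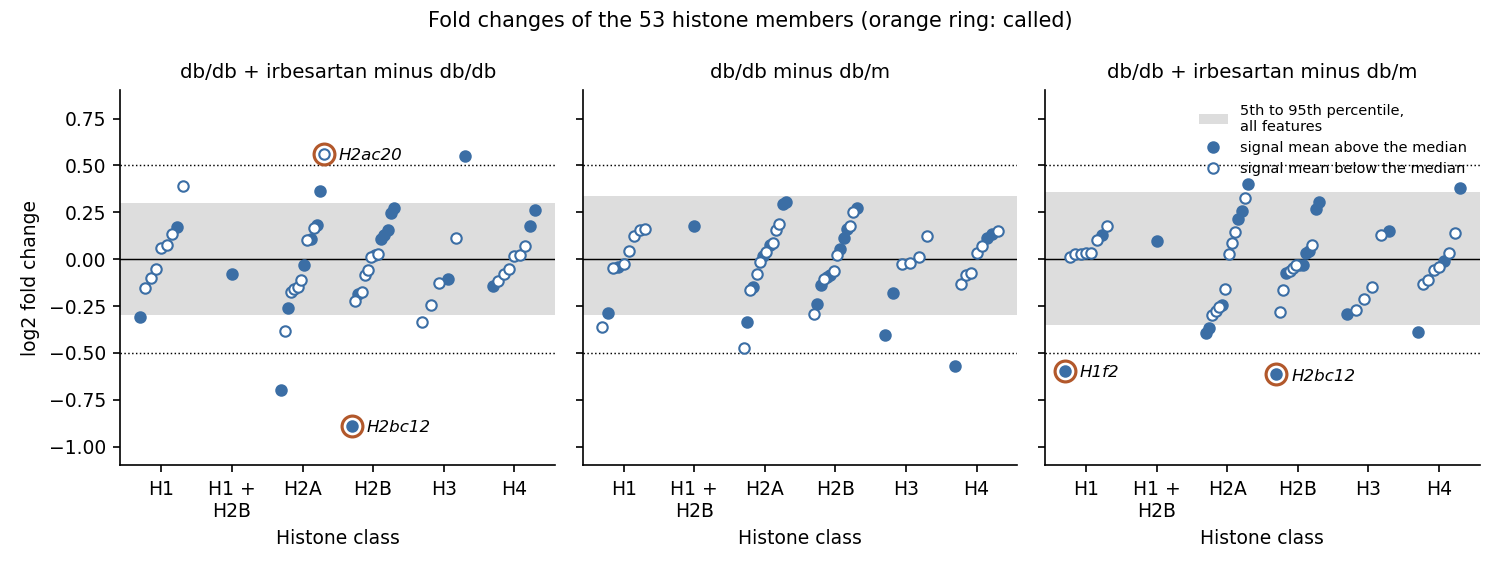
Log2 fold changes of the 53 histone members by class in the 3 comparisons, with filled points for the 22 members whose mean signal was above the median of all probe sets and open points for the 31 below it. The grey band spans the 5th to 95th percentile of all symbol strings, dotted lines mark 0.5 in each direction, and rings mark the called members, H2ac20 and H2bc12 in the first panel and H1f2 and H2bc12 in the third.

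For the bright members that were not called, the intervals show which sizes of change remain possible. The interval for the H2bc4 group of 3, which names H2bc4, H2bc8 and H2bc6, ran from -0.10 to 0.32 in treated against vehicle db/db mice, around a difference of 0.11. That for the H2bc13 group of 4, which names H2bc13, H2bc15, H2bc11 and H2bc7, ran from -0.02 to 0.52 around 0.25, which includes changes past the threshold of 0.5. H4c12, an H4 gene with a probe set of its own, had log2 signals of 9.96, 9.81 and 9.96 in treated db/db mice, 9.82, 9.44 and 9.68 in vehicle db/db mice and 9.39, 9.34 and 9.87 in db/m mice, so that the groups overlapped. Its difference between treated and vehicle db/db mice was 0.26 (95% interval -0.06 to 0.59, limma adjusted p = 0.504). H1f10, a linker histone made outside S phase, had 5.06, 5.27 and 5.13 in treated db/db mice, 4.91 to 5.02 in vehicle db/db mice and 4.97, 4.92 and 5.18 in db/m mice. Treated mice were just above vehicle db/db mice, by 0.17 (95% interval -0.05 to 0.40, limma adjusted p = 0.52). The 95% interval lay within 0.5 of 0 for 32 of the 53 members, but for only 10 of the 22 bright ones, and for 76.2% of all symbol strings. The interval reached 0.31 to each side in the median member, and between 0.189 and 0.605 over the members. These widths describe the precision with 3 mice per group and are not a limit of detection, and changes within them can be missed.

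To see whether diabetes itself was accompanied by other histone signals, db/db mice given vehicle were compared with db/m mice. Of the 53 members 0 rose and 0 fell, beside 1.29% of all symbol strings called higher and 0.973% called lower. The median member stood at 0.01, with 27 members above 0 and 26 below, the median bright member at -0.01, and the median of all symbol strings was 0.01. With limma at an unadjusted p under 0.05, 5 members passed, beside 12.9% of all, and at an adjusted p under 0.05, 0 members and 245 symbol strings did. The interval lay within 0.5 of 0 for 35 members, 10 of them bright.

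The members at the edges of this comparison were not called. The H4c17 group of 13, which names 13 H4 genes, had log2 signals of 4.48, 4.21 and 3.92 in db/db mice, against 4.67, 4.32 and 5.34 in db/m mice, a difference of -0.57 (limma adjusted p = 0.328). The highest of the 3 db/m mice, replicate 3, stood apart from the other 2, and the groups overlapped. The dimmer probe sets with the same 13 symbols gave 0.10, -0.40 and -0.16. H2ac20 stood at -0.47 (limma adjusted p = 0.2), H1f6 at -0.36, the H2bc8 group of 3 at -0.29 and the H3c13 group of 8 at -0.40. The dimmer probe sets of the H3c13 group gave -0.19, 0.03, -0.16 and 0.12. At the upper edges were H2ac21 at 0.31, H2bc12 at 0.27, H1f1, a somatic H1, at 0.16, H4c1 at 0.15 and the H3c1 group of 4 at 0.12. In 1 member, H2bc1, a testis H2B whose probe set was dim, the db/db and db/m mice did not overlap, beside 16.7% of all symbol strings. H4f16, an H4 gene outside the symbol rule that was singled out after its values were seen, was called lower in db/db mice (-0.77, limma adjusted p = 0.232), with 5.06, 4.29 and 4.46 in db/db mice against 5.03, 5.07 and 6.03 in db/m mice, where replicate 3 was again the highest. H4f16 had a probe set of its own but is also among the 13 symbols of the H4c17 group, so their values may not be independent.

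Treated db/db mice were also compared with db/m mice. H1f2, a somatic linker histone, and H2bc12 fell, and 0 members rose. Over all symbol strings 2.04% were called higher and 1.93% lower. The median member stood at -0.01, the median bright member at 0.01 and the median of all at 0.0001, with 26 members above 0 and 27 below. With limma at an unadjusted p under 0.05, 8 members and 17.1% of all passed, and at an adjusted p under 0.05, 0 members and 737 symbol strings did. This comparison shares the treated mice with the first and the db/m mice with the second, so H2bc12 in both calls rests on the same 3 treated mice.

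H1f2 had log2 signals of 7.26, 7.51 and 7.20 in treated db/db mice, 7.85, 7.58 and 7.47 in vehicle db/db mice and 7.79, 7.52 and 8.44 in db/m mice. Treated and db/m mice did not overlap, although their nearest mice almost met. The log2 fold change of -0.60 (95% interval -1.05 to -0.15, limma adjusted p = 0.162) was a call only with db/m replicate 3, and without that array it was -0.33 with a limma adjusted p of 0.298. The call was also lost without treated replicate 1 or treated replicate 3.

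In this comparison 9 of the 53 members did not overlap, 2 higher and 7 lower (17% of the members beside 23.6% of all symbol strings). H2ac10, an H2A gene on chromosome 13, was the highest of the H2A members at 0.40. Its log2 signal was 5.90, 5.80 and 5.95 in treated db/db mice, 5.94, 5.48 and 5.91 in vehicle db/db mice and 5.47, 5.45 and 5.53 in db/m mice. The treated mice were above all db/m mice, its limma adjusted p was 0.116, and it missed the call only on the size of its change. H4c12 stood at 0.38 (limma adjusted p = 0.222) and the H2bc13 group of 4 at 0.30 (limma adjusted p = 0.242), also past the adjusted threshold and under the minimum change. The other edges were H2ac21 at -0.39, the H4c17 group of 13 at -0.39, the H3c15 group of 8 at -0.29, the H3c13 group of 8 at 0.15 and H1f7, a testis H1, at 0.17. Both of these H3 groups name the same 8 genes. Of the 3 dimmer probe sets with the same 13 H4 symbols, 1 went the other way at 0.47 (limma adjusted p = 0.0439 over all probe sets, under the minimum change) and the others stood at -0.02 each. The interval lay within 0.5 of 0 for 31 members, 9 of them bright, beside 71.8% of all.

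**Figure D3:**
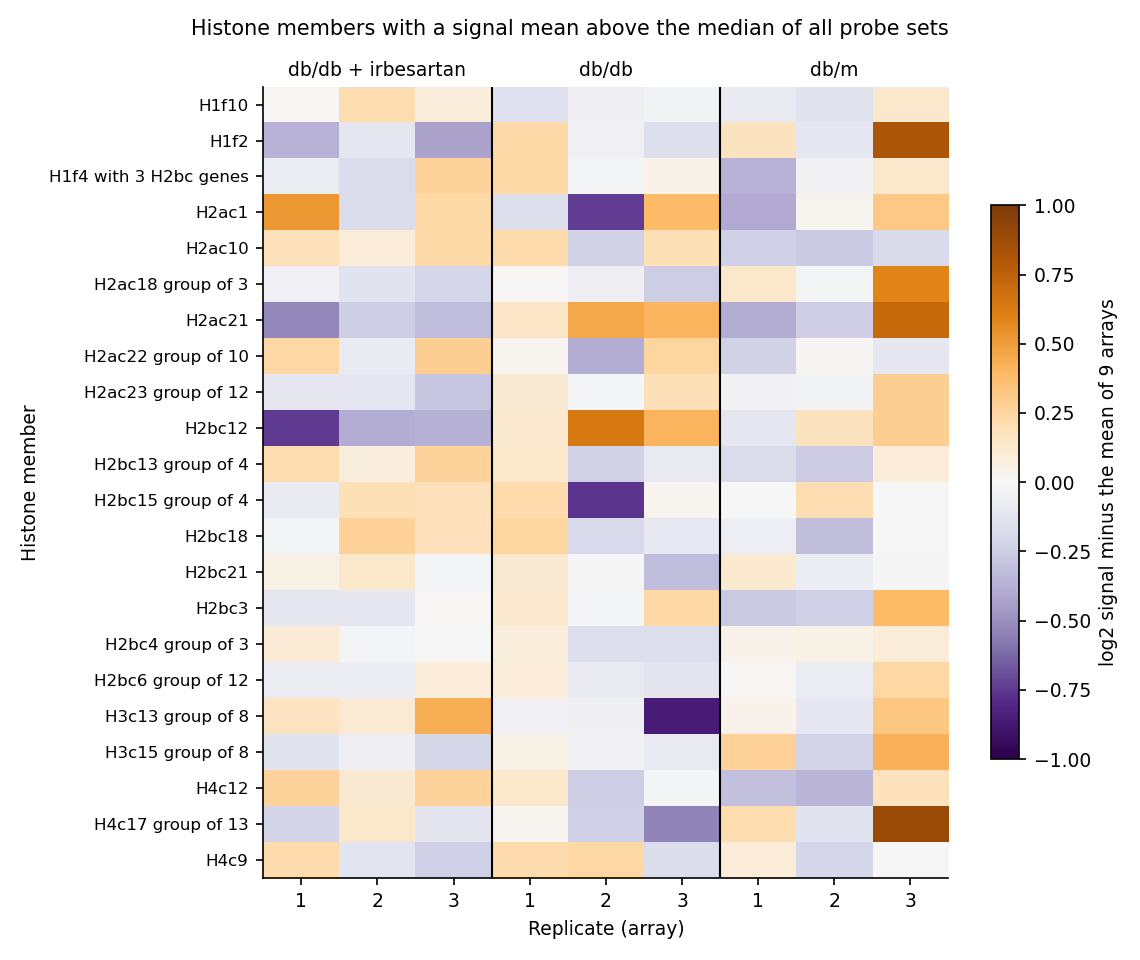
Log2 signal minus the mean of the 9 arrays for the 22 histone members with a mean signal above the median of all probe sets, by array, with rows in order of class. The column of db/m replicate 3 is the highest of its row in 8 of the 22 members, and in the row of H2bc12 all 3 treated mice are lower than the other 6.

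The db/m replicate 3 array held the highest of the 9 values in 17 of the 53 members (32.1%), against 18.9% of all symbol strings, and in 8 of the 22 bright members. The other 8 arrays held the highest value in 1 to 9 members each. The median deviation over the bright members was -0.03, -0.06 and 0.04 in the treated db/db mice, 0.12, -0.05 and -0.06 in the vehicle db/db mice and -0.05, -0.10 and 0.21 in the db/m mice. The excess in db/m replicate 3 was unequal between genes, since H2ac10 (5.53), H2bc18 (3.77) and H2bc21 (5.03) were within or close to the range of the other db/m mice. Without this array, 34 members were higher and 19 lower in db/db than in db/m mice, with a median of 0.04, and the median over the bright members was 0.05, against -0.01 with it. What set this mouse apart was not tested.

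The other genes of DNA replication and division were counted in the same fit, from lists compiled with textbook roles. Beside 1.29% of all symbol strings called higher and 0.973% lower, 3 of 37 measured S phase genes rose and 0 fell in db/db against db/m mice. They were Rrm1 (0.71, limma adjusted p = 0.00391) and Rrm2 (0.55, limma adjusted p = 0.148), the subunits of ribonucleotide reductase, and Prim1 (0.57, limma adjusted p = 0.109), a primase subunit. In treated against vehicle db/db mice 2 fell and 0 rose, Mcm6, part of the replicative helicase (-0.67, limma adjusted p = 0.167), and Cdc6, which loads it (-0.51, limma adjusted p = 0.188). Over all symbol strings 0.415% were called lower and 0.601% higher in that comparison. The median of the 37 genes was -0.22 in treated against vehicle db/db mice, 0.17 in db/db against db/m mice and -0.02 in treated db/db against db/m mice. The histone medians in the same order were -0.03, 0.01 and -0.01 over all 53 members, and 0.11, -0.01 and 0.01 over the 22 bright ones. The difference between the lists was not tested.

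Of 30 measured mitosis genes, 7 fell and 0 rose in treated against vehicle db/db mice, and 9 rose and 0 fell in db/db against db/m mice. Over all symbol strings 0.415% were called lower in the first of these comparisons and 1.29% higher in the second. Mki67, a marker of dividing cells, had log2 signals of 3.96, 3.98 and 4.21 in treated db/db mice, against 5.03, 4.43 and 5.54 in vehicle db/db mice and 4.16, 3.93 and 4.09 in db/m mice. The vehicle db/db mice were above both other groups, by log2 fold changes of -0.95 for treated against vehicle db/db mice (limma adjusted p = 0.171) and 0.94 for db/db against db/m mice (limma adjusted p = 0.0795). Ccnb2, a mitotic cyclin, stood at -1.08 (limma adjusted p = 0.0799) and 0.84 (limma adjusted p = 0.0381) in the same comparisons. Plk1, a mitotic kinase, stood at -0.95 and 0.68, Top2a, which untangles chromosomes, at -0.83 and 0.74, Ccna2, the cyclin of S phase and G2, at -0.75 and 0.73, and Prc1, a spindle protein, at -0.64 and 0.70. In treated db/db against db/m mice 0 mitosis genes were called. These comparisons share the vehicle db/db mice. The count of 7 was 0 without treated replicate 3, 2 without treated replicate 1, and 3 without treated replicate 2 or db/db replicate 1, and the count of S phase genes that fell was 0 without any 1 of the 3 treated mice or db/db replicate 2. Of all symbol strings, 0.0127% were called without treated replicate 3, 0.14% without treated replicate 1 and 0.741% without treated replicate 2. Without db/db replicate 1 or replicate 2 the shares were 0.846% and 0.123%. In db/db against db/m mice, the count of 3 S phase genes was 1 without db/m replicate 1, and the count of 9 mitosis genes stayed between 6 and 12. By the methods' test on the 6 arrays compared, at the same thresholds, 0 genes of either list were called in either comparison. That test called 0% of all symbol strings in treated against vehicle db/db mice and 0.0212% in db/db against db/m mice. With every probe set tested, 2 mitosis and 0 S phase genes fell in treated against vehicle db/db mice, beside 0.317% of all probe sets called. At an adjusted p under 0.05, 3 mitosis genes and 1 S phase gene were called in db/db against db/m mice, beside 1.04% of all symbol strings.

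**Figure D4:**
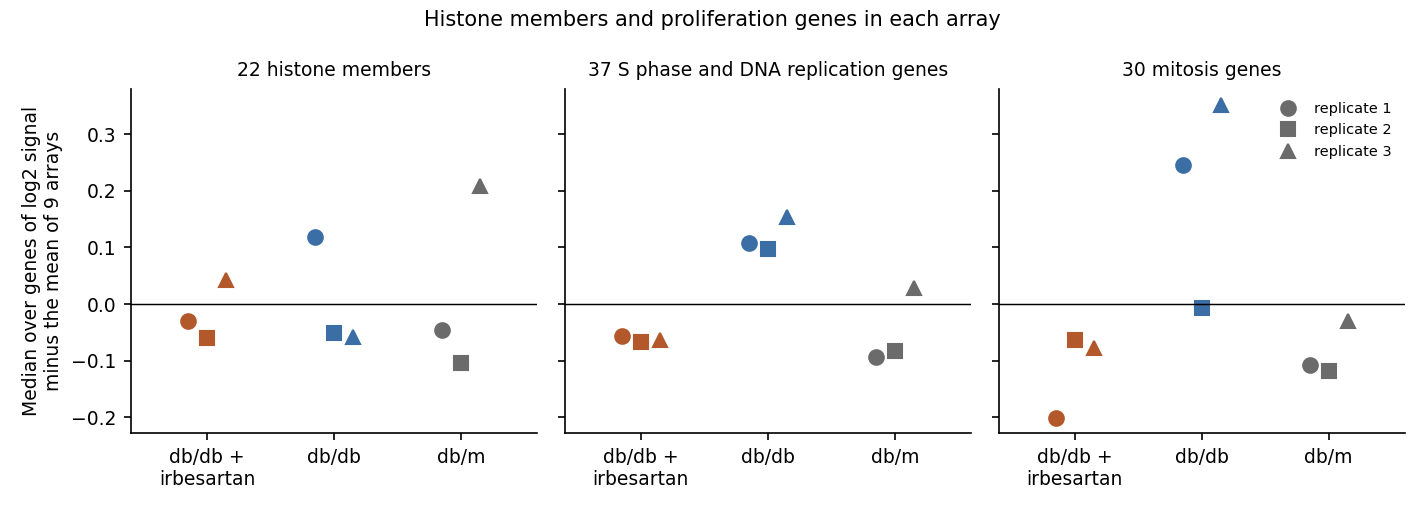
The median over the 22 bright histone members, 37 S phase and DNA replication genes and 30 mitosis genes of the log2 signal minus the mean of 9 arrays, in each mouse. For S phase genes the 3 vehicle db/db mice stand highest, whereas for the histone members the highest array is db/m replicate 3 (0.21) and the db/db mice overlap both other groups.

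The machinery that makes and matures histone mRNA was not called in any comparison, with 0 of 30 genes in each direction and medians of -0.06 in treated against vehicle db/db mice, 0.02 in db/db against db/m mice and -0.07 in treated db/db against db/m mice. Slbp, which binds the stem-loop, had log2 signals of 6.31, 6.35 and 6.49 in treated db/db mice, against 6.66, 6.67 and 6.47 in vehicle db/db mice and 6.52, 6.39 and 6.54 in db/m mice. The treated and vehicle db/db mice overlapped, with a difference of -0.22 (limma adjusted p = 0.408). Npat, the coactivator of the clusters, differed by 0.04 (limma adjusted p = 0.921). Of 24 histone chaperones and assembly factors, Asf1b, which delivers H3 and H4 at the replication fork, fell in treated against vehicle db/db mice (-0.51, limma adjusted p = 0.226), Npm1, a nucleolar chaperone, rose in treated db/db against db/m mice (0.53, limma adjusted p = 0.0668), and 0 were called in db/db against db/m mice. Of 7 measured histone variants made outside S phase, 0 were called in any comparison, and the widest of them, H2aj, stood at -0.60 in treated against vehicle db/db mice (limma adjusted p = 0.423).

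Some markers of blood cells, of a tubule segment and of another tissue moved between the groups beside these results. The summed log2 level of 6 neutrophil markers was 5.72, 5.53 and 5.55 in treated db/db mice, 5.51, 5.70 and 8.85 in vehicle db/db mice and 5.48 to 5.61 in db/m mice, so that db/db replicate 3, which was also highest in the mitosis list, stood apart. That of 3 T cell markers was 5.14 to 5.59 in treated db/db mice, 5.25 to 5.56 in vehicle db/db mice and 5.90 to 6.32 in db/m mice, and all 3 were called lower in both comparisons with db/m mice, where H1f2 and H2bc12 were called in treated mice. The liver genes Alb and Apoa1, at 8.80 to 9.01 in treated db/db mice, 8.47 to 9.08 in vehicle db/db mice and 8.18 to 8.78 in db/m mice, were both called higher in treated db/db against db/m mice. Jchain, 1 of 4 markers of B and plasma cells, was called lower in db/db against db/m mice (-0.84) and in treated db/db against db/m mice (-1.40). Csf1r, 1 of 4 macrophage markers, was called lower in treated db/db against db/m mice (-0.54). Calb1, 1 of 2 markers of the distal convoluted tubule, was called higher in db/db against db/m mice (0.68) and in treated db/db against db/m mice (0.73). The part of these cells and tissues in the histone values was not tested. Both genes were measured singly in only some of the back-to-back pairs that were placed. In these, H2ac12, the partner of H2bc12 with a dim probe set, stood at -0.17 in treated against vehicle db/db mice (limma adjusted p = 0.481). H2ac1 stood at 0.36 (limma adjusted p = 0.632) and its partner H2bc1 at -0.17 (limma adjusted p = 0.529), and 0 of these 3 were called.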

How the data were processed

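Total kidney RNA of 9 mice was hybridized to 1 array each. The authors summarized the scans by RMA in Affymetrix Expression Console (versions are not given in the sources used here), and the deposited values are log2 signals per probe set. They were used as deposited, without a filter. Symbols came from the array's platform annotation: 23521 probe sets had 1 symbol, 1820 several and 16004 none. A symbol spelled H4bc24 was kept as annotated. All arrays were fitted in limma 3.58.1 (R 4.3.3) with a mean for each group and empirical Bayes moderation (prior degrees of freedom 4.96, residual 6), and the fit was tested on simulated data. The methods' inequality for the fold change was read as a minimum. Named were the members called in any comparison, the edges of each class, H1f10 and, of each list, the called genes. The members and lists were chosen with earlier results of these data known. The labels call the arrays biological replicates, and their number, 3 per group, limits the precision. The 9 correlations between same-numbered arrays' deviations lay between -0.075 and 0.0404, so no pairing was used. Promoter windows were read from RefSeq tables with Python 3.11.15. Alternatives are given in the closing section.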

Additional observations from a re-analysis of the deposited data

How the results depend on the processing

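The direction of each histone gene that was called did not turn under any alternative run. With 2, 0 and 2 members called in treated against vehicle db/db mice, db/db against db/m mice and treated db/db against db/m mice, the counts moved as follows. In treated against vehicle db/db mice, the methods' test on 6 arrays and an adjusted p under 0.05 with no minimum change each called 0, as they did of all symbol strings (0%). Array weights called 4, adding H2ac21 and the H3c13 group of 8, beside 1.67% of all, against 1.02% with equal weights. Every probe set tested, a second quantile normalization and the replicate number as a block each called 1, H2bc12. The first called 0.317% of all probe sets, and the others 0.829% and 0.601% of all symbol strings. Leaving out 1 array gave 0 to 3. The fits with 0 left out treated replicate 1, treated replicate 3 or db/db replicate 2. They called 0.14%, 0.0127% and 0.123% of all symbol strings. In db/db against db/m mice, an adjusted p under 0.25 with no minimum change called 1, H2ac20, and leaving out 1 array gave 0 to 1, which was H2ac20 without db/db replicate 1 or db/m replicate 1, the H4c17 group of 13 without db/m replicate 2 and H2ac21 without db/m replicate 3. Of all symbol strings, 6.15% passed with no minimum change, and 2.01% to 3.14% were called with 1 array left out. In treated db/db against db/m mice, the methods' test called 0 adjusted and 1 unadjusted, array weights 1, every probe set tested 1, an adjusted p under 0.05 called 0 and one under 0.25 with no minimum change called 8, the last 2 beside 3.12% and 13.9% of all symbol strings. The methods' test called 2.32% of all symbol strings adjusted and 3.25% unadjusted, and array weights 4.14%. With every probe set tested, 3.79% of all probe sets were called. Leaving out 1 array gave 0 to 4, with 4 without db/m replicate 2. Over these fits 3.48% to 5.14% of all symbol strings were called. Other settings (the 6 arrays compared, a variance trend, single symbols, the mean of probe sets, median centring, a filter at the median signal) kept each count within 1.5 times, but not always the same genes. In treated against vehicle db/db mice, the 6 arrays and median centring added H2ac21, and the filter, under which H2ac20 was not tested, called H2ac21 and H2bc12, both lower. H2bc12 stood between -0.94 and -0.89 over 11 alternatives other than left-out arrays (adjusted p 0.0525 to 0.295), H2ac20 between 0.51 and 0.56 over 10 (0.112 to 0.357) and H1f2 against db/m mice between -0.63 and -0.47 over 11 (0.118 to 0.452). The replicate numbers share no stated origin, and the block moved no other of these 3 counts. The causes of these moves were not tested.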
